A study of Mus musculus with 267 samples.

Results

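CEBPb sites that C57 macrophages gained after 24 h of IL-4 apart from EGR2 are described here, as mapped by chromatin immunoprecipitation with sequencing (ChIP-seq). A site was a peak of the 24 h CEBPb list that shared no base with a peak of the basal CEBPb list and none with a peak of the 24 h EGR2 list, and 14556 of the 37499 peaks (38.8%) met this rule. They made up 72.1% of the 20193 peaks absent from the basal list. The other 5637 gained peaks (27.9%) overlapped EGR2, and 17306 peaks were also in the basal list and are called kept sites below. The macrophages were bone marrow-derived macrophages (BMDMs), grown with M-CSF from the marrow of female mice of 5 inbred strains: SPRET/EiJ (SPRET), NOD/ShiLtJ (NOD), C57BL/6J (C57), PWK/PhJ (PWK) and BALB/cJ (BALB). Cells were either untreated (basal) or given mouse IL-4 at 20 ng/mL for 1, 6 or 24 h, and no group used here carried a transgene or a deleted gene. The CEBPb, PU1, STAT6, PPARg and EGR2 peak lists each pooled the 2 C57 libraries of a condition, so peak values have no spread between replicates. H3K27ac (which marks enhancers and promoters in use), H3K4me2 and H3K4me3 were measured in 2 basal and 2 24 h C57 libraries, and RNA polymerase II (Pol II) in 4 basal and 3 24 h libraries.

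CEBPb is a leucine-zipper transcription factor of the C/EBP family, which binds DNA as a dimer, with itself, with other C/EBP proteins or with relatives such as ATF4, and guides myeloid differentiation and inflammatory and alternative macrophage programmes. IL-4 acts through its receptor and JAK kinases on STAT6, and STAT6 raises genes of alternative activation, among them PPARg, a lipid-sensing nuclear receptor, and EGR2, a zinc-finger factor. PU1 is the ETS-family factor that opens much of the macrophage enhancer repertoire.

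The libraries of the histone marks and Pol II held 7796479 to 21973750 tags, and values are tags per 10000000 in 1000 bp around the centre of an open region. All 10 macrophage markers had an open region within 1 kb of their start, with a summed H3K27ac level of 5698 and 5468 normalized tags in basal and 2479 and 2253 at 24 h. Markers of other cells with an open region within 1 kb of their start were 0 of 6 for T cells, 2 of 6 for B cells (among them Ms4a1 at 29.7 to 94.8 tags) and 3 of 8 for neutrophils (Csf3r, which macrophages also express, at 251 to 421 tags, Camp at 2.14 to 30.5 and S100a8 at 19.3 to 55.6). Fibroblast Col1a1 had at most 2.55 tags and dendritic cell Flt3 and Zbtb46 at most 5.94 in any library. Fewer tags fell inside the regions at 24 h (43.2% and 38.2% for H3K27ac) than in basal (65.4% and 59.6%). The median H3K27ac log2 change over all 67742 regions was -0.28, and 0.03 when libraries were scaled to the median ratio over regions. In such bulk samples fewer cells with a mark and less of it per cell cannot be told apart. The same median for H3K4me2 was -0.66 and -0.01. The part of the shares in these medians was not tested.

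Sequences are shown for 8 sites from among the sites named for the largest changes or the highest counts: 6 were named for a rise of H3K27ac or Pol II and 2 for their CEBPb count. Each holds matches of 1 kind and overlaps no UTR. Each line gives the 200 bp around the peak centre on the plus strand of mm10. Capitals mark a match on either strand to the C/EBP site pair TTGCNNAA or to the STAT6 motif, which is TTC and GAA set 4 bases apart. Of the 19 sites named for the largest changes or the highest counts, 8 held a C/EBP match, 5 a STAT6 match and 1 both. The first 4 below hold C/EBP matches and the other 4 hold STAT6 matches, 2 of them at Chic2.
Nfil3, chr13:52985800-52985999: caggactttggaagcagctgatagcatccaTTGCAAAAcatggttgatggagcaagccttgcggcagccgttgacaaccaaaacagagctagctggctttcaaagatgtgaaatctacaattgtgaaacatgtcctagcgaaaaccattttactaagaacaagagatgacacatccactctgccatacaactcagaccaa
Wdr11, chr7:129756249-129756448: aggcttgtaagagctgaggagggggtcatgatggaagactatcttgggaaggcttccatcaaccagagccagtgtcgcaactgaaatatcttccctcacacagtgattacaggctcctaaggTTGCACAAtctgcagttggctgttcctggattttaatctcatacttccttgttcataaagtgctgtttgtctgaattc
Ssr3, chr3:65295851-65296050: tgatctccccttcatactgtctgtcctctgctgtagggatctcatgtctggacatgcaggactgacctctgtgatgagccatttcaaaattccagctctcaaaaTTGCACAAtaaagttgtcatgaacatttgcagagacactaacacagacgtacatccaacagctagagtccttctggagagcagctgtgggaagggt
Skor1, chr9:63245561-63245760: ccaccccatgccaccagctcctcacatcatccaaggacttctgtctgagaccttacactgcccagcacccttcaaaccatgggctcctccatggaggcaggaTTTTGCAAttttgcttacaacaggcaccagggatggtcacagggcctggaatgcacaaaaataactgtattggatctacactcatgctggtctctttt
Ttc27, chr17:74723289-74723488: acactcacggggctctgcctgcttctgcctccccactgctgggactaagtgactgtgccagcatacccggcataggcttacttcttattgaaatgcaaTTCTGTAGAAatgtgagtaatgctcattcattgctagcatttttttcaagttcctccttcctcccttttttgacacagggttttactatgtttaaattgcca
Rps24, chr14:24970980-24971179: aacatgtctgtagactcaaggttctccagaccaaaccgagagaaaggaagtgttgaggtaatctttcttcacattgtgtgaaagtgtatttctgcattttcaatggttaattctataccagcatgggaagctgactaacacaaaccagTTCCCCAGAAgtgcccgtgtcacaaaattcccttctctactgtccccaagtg
Chic2, chr5:74948686-74948885: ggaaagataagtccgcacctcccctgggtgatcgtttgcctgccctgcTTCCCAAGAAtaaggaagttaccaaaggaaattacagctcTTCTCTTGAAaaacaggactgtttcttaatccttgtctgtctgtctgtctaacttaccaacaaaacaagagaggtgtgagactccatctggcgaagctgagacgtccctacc
Exo5, chr4:120914639-120914838: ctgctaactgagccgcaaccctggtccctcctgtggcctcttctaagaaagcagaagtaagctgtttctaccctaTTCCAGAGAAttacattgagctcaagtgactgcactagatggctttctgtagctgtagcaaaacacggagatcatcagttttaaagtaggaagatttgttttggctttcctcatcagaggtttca
Each site is named after the nearest gene start. The Ssr3 site lies 96.7 kb from that start in an intron of Kcnab1, the Skor1 site 96.7 kb away in an intron of Map2k5, and the Ttc27 site 5.66 kb into an intron of Ttc27 itself. The Nfil3 site lies 4.83 kb upstream of Nfil3, a bZIP repressor gene, and the other 4 lie between genes.

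The sites were chosen by the authors' CEBPb and EGR2 peak calls, so their CEBPb values describe them and were not tested. The median deposited count of a site without EGR2 was 27 (quartiles 22 and 35, range 16 to 247), against 33 at gained sites with EGR2 and 74 at kept sites. The authors' score had a median of 886 on a scale that ran from 540 to 1000 in the list, and 39.5% of the sites held the highest score, against 58.0% of gained sites with EGR2 and 94.3% of kept sites. The sites therefore sat toward the weak end of the 24 h list. At the edge of the rule, the nearest basal peak was 7 bp away from the closest site, and 1171 sites (8.04%) had a basal CEBPb peak within 1000 bp. Toward EGR2 the closest site adjoined a peak, and 2197 sites (15.1%) had an EGR2 peak within 1000 bp. Just outside the rule, 12 peaks overlapped a basal peak by 50 bp or less and 335 overlapped an EGR2 peak by as little. The median distances were 14880.5 bp to a basal CEBPb peak and 9082 bp to an EGR2 peak.

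The basal list was shorter than the 24 h list, with 18043 peaks. When only the 18043 best peaks of the 24 h list were kept, 2011 of them (11.1%) met the rule, and of the better 18749 peaks 2310 (12.3%) did. How much of the gain is list length and how much is binding cannot be told apart in pooled lists. With centres within 200 bp counted as shared 14676 sites remained, and 14347 remained when EGR2 peaks of basal, 1 h and 6 h were also barred.

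EGR2 was seldom called at these sites at the other C57 times: 209 sites (1.44%) overlapped an EGR2 peak in basal (46), at 1 h (130) or at 6 h (106). This share is not independent of the rule, which bars 24 h EGR2 peaks. Of the gained sites with EGR2, 25.3% overlapped an EGR2 peak in basal, 43.3% at 1 h and 41.2% at 6 h. A tag table of 30675 EGR2 sites held 202 that touched one of the sites. Their EGR2 medians were 26.7 and 32.2 tags in the basal libraries, 17.2 and 34.2 at 1 h, 36.7 and 48.1 at 6 h and 57 and 34.6 at 24 h. Over all sites of that table the medians were 22 and 26.9 in basal and 44.0 and 32.6 at 24 h, so the 202 were at or above the level of all sites in each of these libraries. In the other strains 14.2% of the sites (2062) overlapped a 24 h EGR2 peak: 9.31% in SPRET, 7.50% in BALB, 2.03% in PWK and 1.65% in NOD. The EGR2 lists there held 39458, 37104, 14919 and 16604 peaks, so the order of the strains followed their list lengths except between NOD and PWK. Those lists carry another kind of score than the C57 EGR2 lists, so their shares cannot be set against those of C57.

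Open chromatin covered part of the group. Of the 14556 sites, 7285 (50.0%, 95% exact interval 49.2 to 50.9) lay in an open region found by ATAC-seq in C57 cells, against 84.3% of gained sites with EGR2 and 78.7% of kept sites. Of the 7259 distinct regions these sites fell in, 51.7% had been called open in basal and at 24 h, 39.8% in basal only and 8.47% (615) at 24 h only, against 73.4%, 18.9% and 7.73% for gained sites with EGR2. Over all 67742 open regions these shares were 52.3%, 30.7% and 16.995%, and for kept sites 63.3%, 33.5% and 3.19%. Most of the open regions were thus called before IL-4, as was the case over all regions. The share called at 24 h only was below that of all regions, and the share called in basal only was above it. The sites lay far from gene starts, with a median distance of 25.3 kb, 49.5% in introns, 39.4% between genes, 8.43% within 1 kb of a start and 2.67% in exons. Gained sites with EGR2 lay nearer (19.1 kb, 16.5% within 1 kb). The sites' GC content of 44.8% was below the 49.3% of gained sites with EGR2 and the 52.7% of all open regions.

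The C/EBP site pair occurred within 100 bp of the centre at 33.7% of the sites (4911; 33.0 to 34.5), compared with 19.7% of gained sites with EGR2, 42.9% of kept sites and 12% of all open regions. Sites outside open regions held it more often, at 44.4% against 23.1% of those inside. The full palindrome TTGCGCAA showed the same order, with 155 sites outside (2.13%) against 19 inside (0.261%), and 2 among gained sites with EGR2 (0.0355%). The C/EBP-ATF composite TGATGCAA, which C/EBP and ATF proteins bind as a pair, was in 4.26% of sites, 1.70% of gained sites with EGR2 and 1.13% of all regions. The pair TTGCNNAA was concentrated at the peak centre, at 6.12 matches per 100 sites in the 10 bp to its right against 0.309 in the outermost 10 bp.

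**Figure D1:**
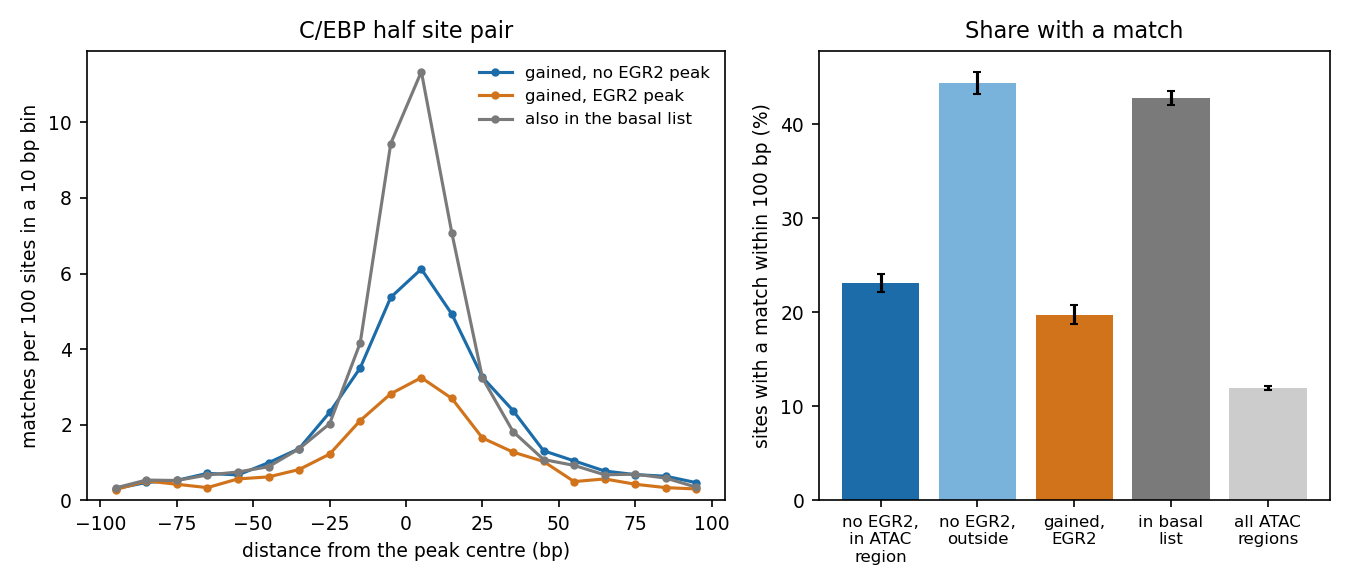
Left, matches to the C/EBP site pair per 100 sites in 10 bp bins by distance from the peak centre; right, the share of sites or regions with a match within 100 bp, with 95% exact binomial intervals as bars. Gained sites without EGR2 reach 6.12 per 100 in the bin right of the centre, between kept sites at 11.3 and gained sites with EGR2 at 3.25, and the sites outside open regions reach the share of kept sites.

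The other motifs stood closer to their share in all open regions, or below it. The EGR motif GCGTGGG was in 0.90% of the sites, 4.84% of gained sites with EGR2 and 3.07% of all regions, and the KLF motif GGGNGTGG in 4.76%, 13.9% and 10.2%. The PU1 core GAGGAA stood at 32.2% of sites and 34.6% of all regions, the AP-1 motif TGANTCA at 17.8% and 16.9%, and the nuclear receptor half-site AGGTCA at 12.9% and 14%. The STAT6 motif was in 7.03% of sites and 4.76% of regions, the RUNX motif TGTGGTT in 8.05% and 6.43%, and the IRF motif in 3.89% and 2.53%. The E-box TCACGTG was in 1.42% and 2.25%, the CRE TGACGTCA, an ATF and CREB element, in 0.625% and 0.917%, and the NF-kB motif in 0.653% and 1.57%. The longer PU1 motif GAGGAAGT and the STAT motif TTCNNNGAA were in 7.00% and 7.10% of sites and 8.44% and 5.22% of regions. Both strands were searched, overlapping matches counted, and GC content, which differs between these sets, was not matched.

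PU1 was the factor most often found with CEBPb at the sites. PU1 peaks overlapped 42.8% of sites (42.0 to 43.7) in the basal list and 48.8% (47.9 to 49.6) in the 24 h list, with 40.1% in both, 8.65% (1259) at 24 h only and 2.73% (397) in basal only. STAT6 overlapped 22% in basal, 20.1% at 1 h, 18.3% at 6 h and 32.7% at 24 h. PPARg overlapped 4.48% in basal and 24.4% at 24 h. Each of these shares was below that of gained sites with EGR2 at the same time, where PU1 reached 72.0%, STAT6 69.6% and PPARg 50.9% at 24 h. The 2 classes also differ in median count (27 against 33) and in the share in open regions (50.0% against 84.3%). What these differences add to the shares was not tested. At 36.0% of sites (5243) no list of the 3 factors held a peak at any time, and 13.1% (1906) had all 3 at 24 h.

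**Figure D2:**
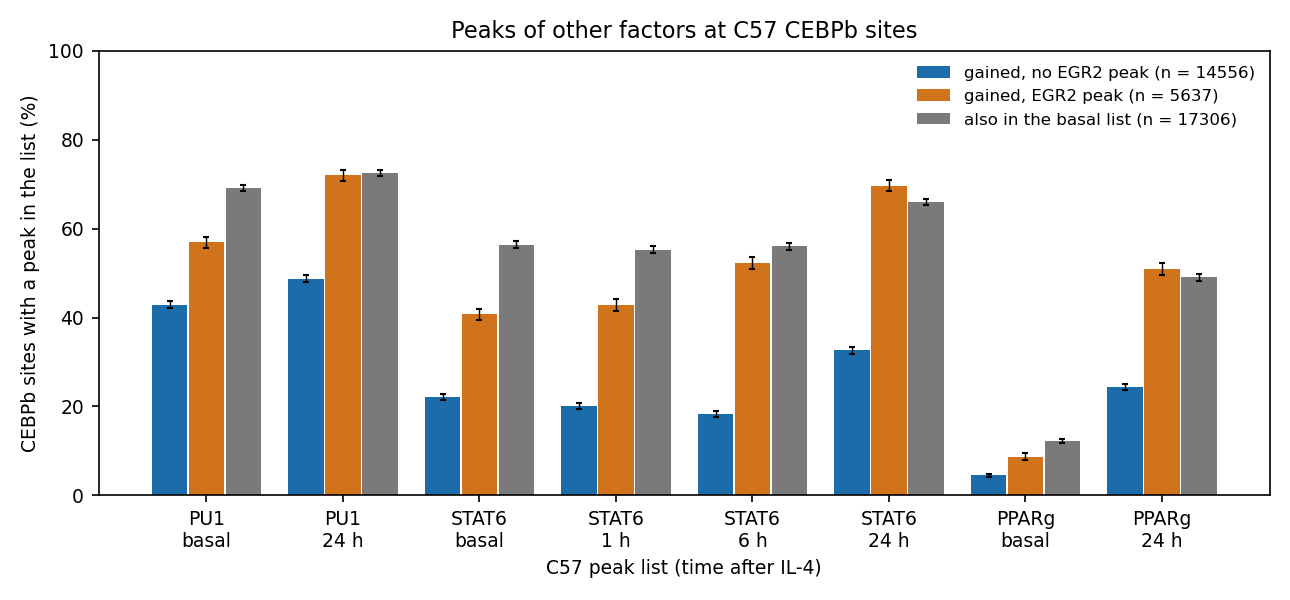
Percent of CEBPb sites that overlap a peak of PU1, STAT6 or PPARg in each C57 list, by class of CEBPb site, with 95% exact binomial intervals as bars. Gained sites without EGR2 are lowest in all 8 lists, at 48.8% for PU1, 32.7% for STAT6 and 24.4% for PPARg at 24 h.

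List sizes set part of these shares. The PPARg lists held 7627 peaks in basal and 39088 at 24 h, the STAT6 lists 30589, 24376, 23884 and 39537 in time order, and the PU1 lists 85916 and 90308. The PPARg lists also carry another kind of score than the STAT6 and PU1 lists. STAT6 was called at 24 h and not in basal at 15.4% of sites (2236), and PPARg at 20.5%. Factor peaks were more frequent where chromatin was open: at 24 h PU1 overlapped 61.8% of sites inside open regions and 35.7% of those outside, STAT6 46.9% and 18.4%, and PPARg 34.6% and 14.1%. Counting intervals treat sites as independent, which neighbouring sites are not.

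The sites were seen again in the other strains to different degrees. At 24 h a CEBPb peak overlapped 70.3% of the C57 sites in NOD, 57.3% in BALB, 53.9% in PWK and 32.5% in SPRET. In basal cells it was 17.7%, 7.24%, 42.9% and 35.0%. Thus 53.2% of sites in NOD and 50.5% in BALB had a peak at 24 h and none in basal, as in C57, but 17.1% in PWK and 6.94% in SPRET, where 36.9% and 25.6% had peaks at both. At 24 h 2452 sites (16.8%) had a peak in all 4 other strains and 1846 (12.7%) in none. The 2452 held TTGCNNAA at 40.9%, and list-wide differences remain beside these shares, since the basal lists of PWK (32353) and SPRET (31109) were longer than those of C57, NOD (19060) and BALB (13722).

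**Figure D3:**
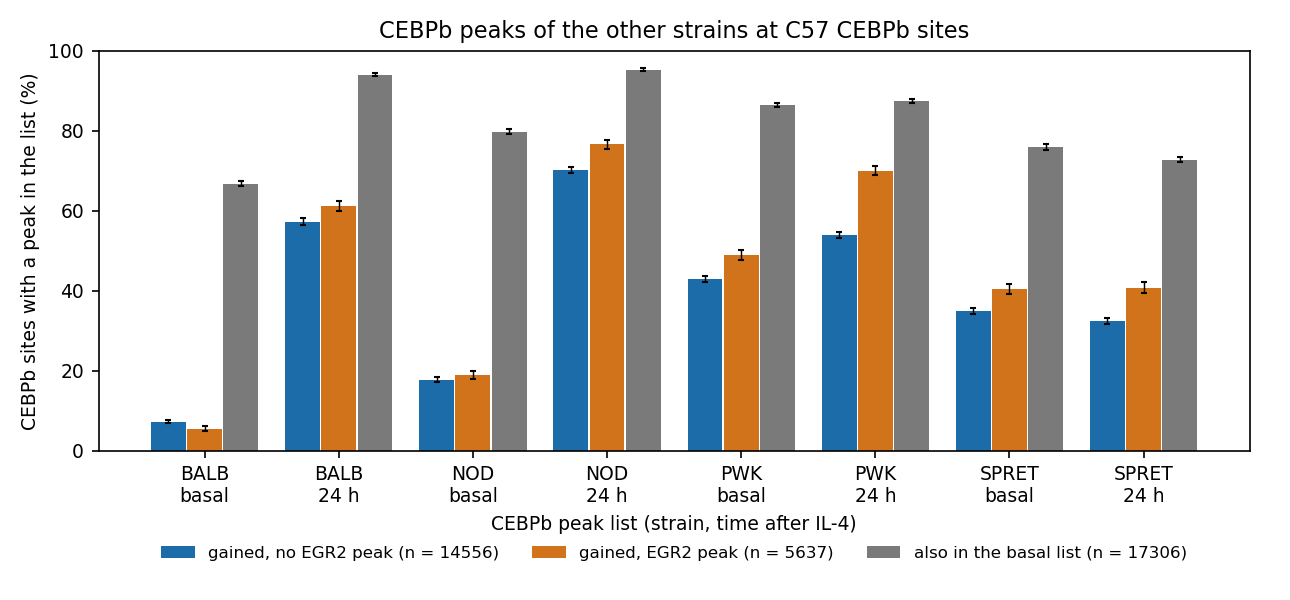
Percent of C57 CEBPb sites that overlap a CEBPb peak of each other strain, in basal and at 24 h, by class of site, with 95% exact binomial intervals as bars. Gained sites without EGR2 go from 7.24% to 57.3% in BALB and from 17.7% to 70.3% in NOD, but from 42.9% to 53.9% in PWK and from 35.0% to 32.5% in SPRET.

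H3K27ac at the open sites moved in both directions. A region was counted as changed where the 24 h and basal means of normalized tags, each plus 1, differed at least 2.5-fold and one mean reached 16 tags, which 4784 of the 7259 regions did. H3K27ac rose at 330 regions (4.55%, against 3.46% of all regions) and fell at 552 (7.60%, against 7.55%). The libraries of the groups did not overlap at 313 of the rises (4.31% of the 7259 regions, against 3.25% of all regions). They did not overlap at 530 of the falls (against 7.12% of all regions). The fall was at the background rate and the rise a little above it. With median-ratio scaling the split turned, to 490 rises (6.75%, against 5.26% of all regions) and 230 falls (3.17%, against 3.23%). The median log2 change was -0.26, close to the -0.28 of all regions, and the library medians were 25.1 and 25 tags in basal and 22.1 and 24.3 at 24 h. By limma, at an adjusted p under 0.05, 0 regions were higher and 0 lower, as among all regions (0% in either direction). Before adjustment, 514 had a limma p under 0.05 and were higher (7.08%, against 6.91% of all regions) and 1068 were lower (14.7%, against 15.1%). Of the count tests edgeR found 0 (against 0% of all regions), and DESeq2 found 199 higher (against 2.17% of all regions) and 68 lower (against 0.931%). Without basal replicate 1 limma called 26 regions and without basal replicate 2 16.

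The 2 directions were split by PU1, as they were in open regions with no such site. Counted over regions, a basal PU1 peak was in 43.6% of rising and 91.7% of falling regions with a site. In all other open regions it was in 46.7% and 88.7%. Among the 594 regions with a PU1 peak at 24 h only, H3K27ac rose at 72 (12.1%) and fell at 7 (1.18%), with a median log2 change of 0.35. Among the 4127 with a basal PU1 peak it rose at 107 (2.59%) and fell at 427 (10.3%), with a median of -0.46. The 2538 without PU1 lay between, with 151 rises (5.95%), 118 falls (4.65%) and a median of 0.02. The order was the same with median-ratio scaling, with rises at 17%, 4.12% and 8.63%, respectively, and 59.9%, 72.4% and 56.7% of these regions passed the 16-tag minimum. Sites with STAT6 at 24 h had more calls in both directions (5.86% and 10.7%) than those without (3.38% and 4.89%), and 78.0% of the former passed the 16-tag minimum against 55.2% of the latter. Gained sites with EGR2 rose at 12.6% and fell at 4.27%. Opening of chromatin went the same way. Of the 615 regions called open at 24 h only, 61 rose (9.92%) and 24 fell (3.9%), against 4.59% and 3.01% of all 11513 such regions. The median H3K27ac of the 615 was 11.2 tags in basal and 16.985 at 24 h. For the 11513 it was 3.8 and 6.58 tags, so the 16-tag minimum need not be met equally often in both sets. Its part in these rates was not tested.

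**Figure D4:**
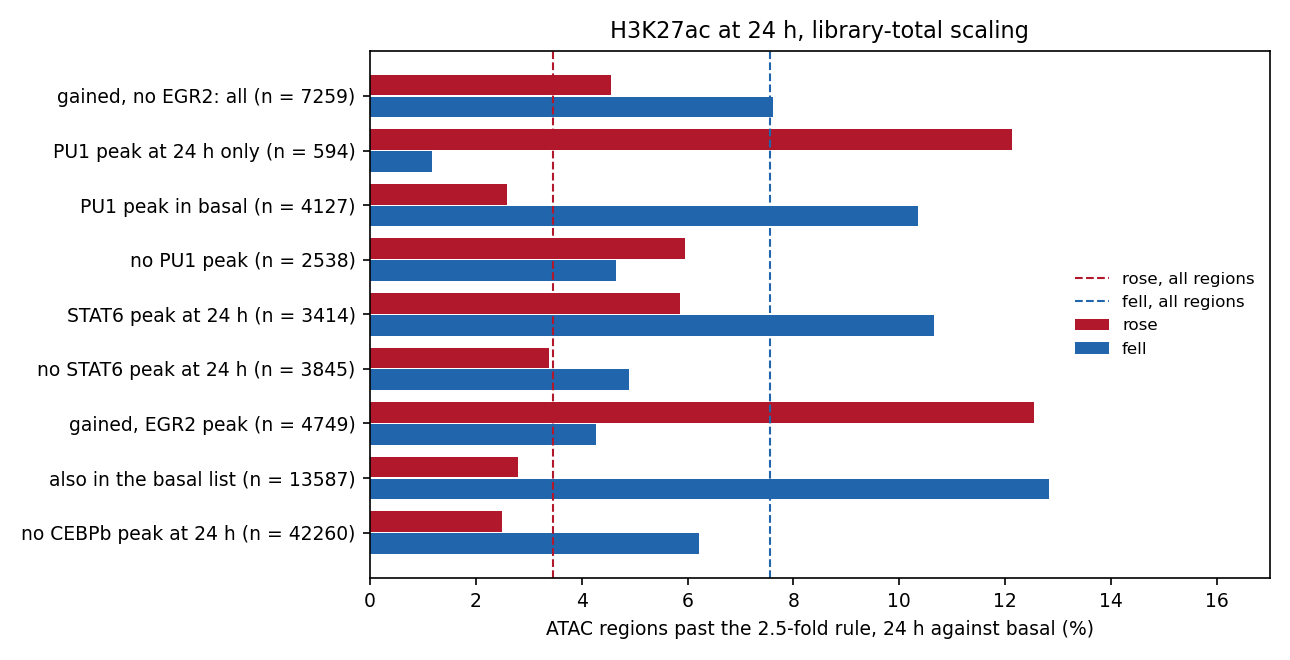
Percent of open regions whose H3K27ac rose (red) or fell (blue) past the 2.5-fold rule at 24 h, for all regions with a gained site without EGR2, for subsets of them by PU1 and STAT6 peaks, and for other classes, with dashed lines at 3.46% and 7.55% for all regions. Regions with PU1 at 24 h only rise at 12.1% and fall at 1.18%, those with basal PU1 rise at 2.59% and fall at 10.3%.

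Sites that rose and fell also differed in what else lay at them. A STAT6 motif was within 100 bp of 21.8% of the sites in rising regions, 2.54% of those in falling regions and 5.55% of the rest. STAT6 peaks were in the basal list at 14.5% of sites in rising and 71.0% in falling regions, but at 24 h at 60.6% and 65.8%. TTGCNNAA was at 25.2% and 13.9%. Counted over regions instead of at the CEBPb peaks, the STAT6 motif was in 19.7% of rising and 1.63% of falling regions with such a site. In regions with no such site it was likewise in 16.1% and 2.72%. A basal STAT6 peak was in 18.5% and 81.7% of the former and 20.7% and 73.7% of the latter. These contrasts in STAT6 were thus not limited to these sites.

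Pol II changed at fewer regions. It rose at 129 (1.78%, against 1.57% of all regions) and fell at 111 (1.53%, against 1.66%) with a minimum of 8 tags, reached by 4780 regions. By limma 26 were higher (against 0.223% of all regions) and 5 lower (against 0.096%). With the replicate number as a block 37 were higher (against 0.415% of all regions) and 22 lower (against 0.394%). Of the 594 regions with PU1 at 24 h only, Pol II rose at 30 (5.05%) and fell at 3. Both H3K27ac and Pol II rose at 80 regions (1.10%, against 0.936% of all regions) and fell at 73 (1.01%, against 1.14%). The 26 and 5 rest on single libraries, since limma called 0 regions when 24 h replicate 2 was left out and 1 when 24 h replicate 1 was. Leaving out basal replicate 1 gave 66 calls, and leaving out basal replicates 2, 3 and 4 gave 11, 9 and 10. Without basal replicate 1 the fold rule gave 205 rises.

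H3K4me2, a mark of promoters and primed enhancers, rose at 19 regions (0.262%, against 0.387% of all regions) and fell at 76 (1.05%, against 1.27%). For it limma called 16 higher (against 0.179% of all regions) and 1 lower (against 0.0576%). In 24 h replicate 2, 18.9% of H3K4me2 tags lay in the regions against 27.2% to 37.2% in the others. With median-ratio scaling 162 rose (against 1.85% of all regions) and 0 fell (against 0.0118%). Without 24 h replicate 2 the fold rule gave 49 rises and 44 falls and limma 0 calls, without 24 h replicate 1 29 rises, 1358 falls and 3391 calls, and without either basal replicate 38 and 40 rises, 156 and 168 falls and 4 and 6 calls. H3K4me3, a promoter mark, rose at 74 regions (1.02%, against 0.639% of all regions) and fell at 6 (against 0.179% of all regions), and with any 1 library left out 12 to 15 fell. For it limma called 0 in either direction (against 0% of all regions), with 677 higher (against 7.62% of all regions) and 500 lower (against 11.9%) at 0.05 before adjustment. Of the count tests edgeR found 0 (against 0% of all regions), and DESeq2 found 20 higher (against 0.211% of all regions) and 6 lower (against 0.205%).

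In the H3K27ac time course, whose table has 8208 regions with a site out of 77955, limma called 176 higher at 1 h (2.14%, against 1.37% of all regions) and 736 lower (8.97%, against 8.36%). At 6 h 276 were higher (3.36%, against 2.67%) and 245 lower (2.98%, against 2.46%), and at 24 h 138 were higher (1.68%, against 1.13%) and 26 lower (0.317%, against 0.327%). By this fit falls were most frequent at 1 h, where replicate 2 had 20.5% of its tags in regions against 44.0% in replicate 1. The site medians were 19.3 and 11.7 tags at 1 h, 21.7 and 22.1 in basal, 22.3 and 21.9 at 6 h and 20.4 and 22.3 at 24 h. The order turned with median-ratio scaling, with 77 regions lower at 1 h and 168 at 6 h, and with edgeR, with 39 and 129. Without 1 h replicate 1 limma called 2206 lower at 1 h and without basal replicate 2 it called 18. All 3 contrasts share the basal libraries.

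The sites with the largest H3K27ac rises were mostly without the mark in basal cells. The site 9.0 kb from Ang5, a gene of the ribonuclease A family, had 1.36 and 2.85 H3K27ac tags in basal and 103.6 and 151.6 at 24 h, a change of 5.37 in log2 of the group means plus 1, the scale of each log2 change given here. Pol II there was 0.62, 0.80, 0.54 and 0 tags in basal and 29.4, 23.7 and 28.2 at 24 h (limma adjusted p 0.00360), a ratio of 50.1 with a counting interval of 16.7 to 246 since basal held 3 reads. The groups did not overlap in either mark, which the choice of the largest rises required. H3K27ac had reached 13.9 and 23.1 tags at 1 h and 31.6 and 127.8 at 6 h. The region was open at 24 h only, with STAT6 at 1, 6 and 24 h and PPARg at 24 h but no PU1.

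STAT6 and PPARg without basal STAT6 recurred among them. The Ttc27 site rose from 3.39 and 0 tags to 85.7 and 99.8 (log2 5.12), with Pol II up by 3.11 (limma adjusted p 0.0308) and H3K4me2 by 2.87 (0.00108). The Rps24 site, 484 kb from the nearest start, went from 2.04 and 0.71 to 70.5 and 49.9, and its Pol II at 24 h was 17.3, 2.73 and 0, past no rule. The Chic2 site, 96.0 kb away, went from 1.36 and 4.28 to 78.1 and 82.7, with Pol II up by 3.30 (limma adjusted p 0.0120). All 3 carried STAT6 at 1, 6 and 24 h and PPARg at 24 h, and the Ttc27 and Rps24 sites PU1 at 24 h. The site 231.6 kb from Hrh4, a histamine receptor gene, had the same STAT6, PPARg and PU1 peaks as the Ttc27 site, a CEBPb count of 104 and a CEBPb peak in all 4 other strains at 24 h. It rose from 6.11 and 1.43 to 140.1 and 86.0 tags, with Pol II up by 3.33 (limma adjusted p 0.0474).

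Others rose with no STAT6 or PPARg peak. The Ssr3 site had CEBPb in all 4 other strains at 24 h and none of PU1, STAT6 or PPARg, and rose from 1.36 and 0.71 to 39.9 and 63.7 tags, a ratio of 51.1 (17.1 to 251, 3 reads in basal). The Skor1 site rose from 0.68 and 0.71 to 8.49 and 72.9, a ratio of 64.4 (17.4 to 538, 2 reads in basal) that 1 library carried: the log2 change of 4.62 became 2.49 without 24 h replicate 2. The Tmem26 site lay 0.24 kb from the start of that transmembrane protein gene, with H3K27ac of 6.78 and 2.85 against 322.6 and 94.5 and H3K4me3 of 70.6 and 53.2 against 263.4 and 224.7. Its Pol II went from 51.8, 22.5, 3.75 and 5.06 to 210.8, 224.4 and 60.3 (limma adjusted p 0.0506, and 0.00372 with the block). EGR2 peaks covered it in C57 at 1 h and in BALB, PWK and SPRET at 24 h, so other times and strains did hold EGR2 there.

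The largest Pol II rises, beside that at Ang5, were at 3 further sites. At the Ang6 site, 3.57 kb from another ribonuclease A family gene, it was 15.6, 8.02, 19.3 and 7.09 in basal and 204.8, 379.5 and 152.6 at 24 h, a log2 change of 4.19 (limma adjusted p 0.00215). The Ang6 site carried all 3 factors, and its H3K27ac went from 42.7 and 54.2 to 165.5 and 214.6. At the site in the exon of Socs1, a feedback inhibitor of JAK-STAT signalling, Pol II was 26.8, 22.5, 14.5 and 13.2 against 306.8, 654.9 and 133.4 (log2 4.18, limma adjusted p 0.00360). H3K27ac of 4.75 and 0.71 became 73.0 and 45.3 there, and H3K4me3 of 10.9 and 4.39 became 227.9 and 182.6. At the Exo5 site, 10.3 kb from that exonuclease gene, Pol II was 2.5, 2.41, 0.54 and 1.01 against 68.0, 91.9 and 20.5 (log2 4.55, limma adjusted p 0.00477), and H3K27ac was 14.3 and 3.57 against 219.8 and 138.5.

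The largest falls lay at or near gene starts. The Pilra site, 0.02 kb from the start of an inhibitory immunoglobulin-like receptor gene, fell from 54.3 and 48.5 to 3.40 and 1.97 tags (log2 -3.83), and the Pol II log2 change was -2.39 (limma adjusted p 0.194, and 0.0386 with the block). The Igfbp4 site, at a gene for a binder of insulin-like growth factors, went from 126.9 and 438.5 to 16.1 and 43.3, and Pol II fell by 1.95 on the log2 scale (limma adjusted p 0.0439). The Fam102a site went from 114.7 and 39.9 to 10.2 and 8.53, and the Fcrl1 site, at an Fc receptor-like gene, from 243.6 and 286.6 to 30.6 and 40.0. At Pilra, Fam102a and Fcrl1 PU1 peaks were called in basal and at 24 h. In all 4 the H3K27ac libraries of the groups did not overlap, which the choice of these sites required. No H3K27ac change of a named site had a limma adjusted p under 0.106.

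**Figure D5:**
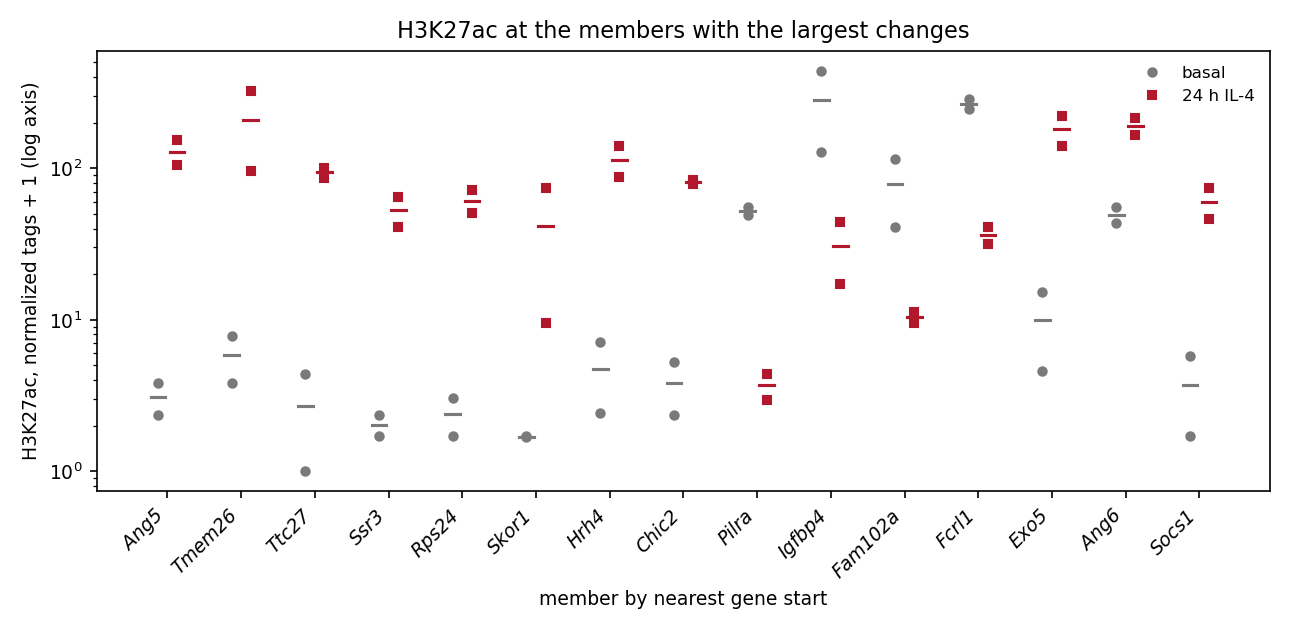
H3K27ac in normalized tags plus 1 on a log axis at the sites with the largest changes in H3K27ac or Pol II, named after the nearest gene start, with a point per library (2 basal, 2 at 24 h) and a dash at the mean. The basal and 24 h points do not overlap at any of the sites plotted, which was required of those chosen for H3K27ac. The 24 h points are widest apart at Skor1 (8.49 and 72.9 tags).

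The sites with the highest CEBPb counts were not those with the largest mark changes. The highest, 247, lay 107 kb from Esp38 inside the noncoding gene Gm26917, next to an annotated ribosomal RNA (CT010467.1), where repeats can collect reads, and its H3K27ac was 116.0 and 37.8 against 214.8 and 206.1 (log2 1.44, and 0.85 without basal replicate 2). The Nfil3 site had a count of 224, STAT6 at 1, 6 and 24 h, and H3K27ac of 50.2 and 28.5 against 114.6 and 150.3 (log2 1.73). The Wdr11 site, with 215, lay in no open region and had a CEBPb peak at 24 h in all 4 other strains and in basal in BALB, PWK and SPRET. The Cd200r3 site, with 191, had 274.8 and 180.4 against 153.6 and 220.5 tags, which overlap.

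Among IL-4 genes the direction varied. The site 1.04 kb upstream of Mgl2, a galactose lectin gene, also the nearest to its neighbour Clec10a, rose from 10.2 and 30.7 to 71.3 and 173.3 tags (log2 2.52), with Pol II of 4.37, 0, 2.14 and 3.04 against 27.3, 20.0 and 39.8 (limma adjusted p 0.0254). At the intron site of Mrc1, the mannose receptor, Pol II rose from 46.8, 89.1, 115.8 and 78.0 to 380.8, 491.0 and 195.0 (limma adjusted p 0.0360), while H3K27ac was 105.2 and 134.1 against 222.4 and 164.1, past no rule. The site 25.3 kb from Batf3, a bZIP factor gene, rose from 19 and 62.8 to 90.8 and 163.4 (log2 1.61), but not past the rule without basal replicate 1 (1.01) or 24 h replicate 2 (1.13). The site 37.1 kb from Tyk2, a JAK-family kinase, in an intron of Pde4a, fell from 744.2 and 607.5 to 205.4 and 184.4. The sites at Il4ra (367.0 and 237.4 against 193.5 and 104.3), the receptor itself, Bcl6, a repressor (407.7 and 343.7 against 236.8 and 179.8), and Pdcd1lg2, an immune checkpoint ligand (230.7 and 127.6 against 208.0 and 112.9), passed no rule, although Il4ra fell without 24 h replicate 1 (log2 -1.53). Of the C/EBP genes, Cebpa had an exon site outside open regions, Cebpb had one 1.06 kb upstream with H3K27ac of 19 and 13.6 against 30.6 and 18.4, and Cebpd had none within 50 kb.

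By list, sites lay within 50 kb of the start of 23 of 29 alternative activation genes, 17 of 20 IL-4 signalling genes, 11 of 17 C/EBP and bZIP partner genes and 17 of 26 known CEBPb targets of myeloid cells, against 50.3% of all genes and 63.0% of genes with an open region. Lysosome genes stood at 23 of 26, motility and adhesion genes at 21 of 25, NF-kB genes at 16 of 24, PPARg-type lipid genes at 14 of 20, AP-1 and MAF genes at 12 of 16 and macrophage markers at 9 of 10. Arg1 had none. H3K27ac rose at 10 of the 30 regions near alternative activation genes (33.3%) and fell at 1, with a median log2 change of 0.76, and Pol II rose at 10 and fell at 1, against H3K27ac rises at 330 and falls at 552 of the 7259 regions and an H3K27ac median of -0.26. The lists were written by hand with earlier results of these data known, so these shares describe the chosen genes. Open regions near the same genes but without a site were not counted. Near IL-4 signalling genes 6 of 20 rose and 4 fell, and near C/EBP and bZIP partner genes 5 of 18 rose and 1 fell. Near lipid genes 0 of 17 rose and 3 fell (median -0.92), near NF-kB genes 0 of 15 rose and 3 fell, near CEBPb targets 2 of 21 rose and 5 fell, and near macrophage markers 1 of 15 rose and 4 fell. Of the markers of other cells, 5 of 8 neutrophil, 4 of 6 B cell, 4 of 6 erythroid, 3 of 6 dendritic cell, 2 of 6 T cell and 1 of 6 fibroblast genes had a site that near.

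Sites also clustered. The start of Sfi1, a centrosome protein gene, had 29 within 50 kb. These fell in 26 open regions, of which 12 rose in H3K27ac and 0 fell, with a median log2 change of 1.30. Only 2 of the 29 held TTGCNNAA and 0 overlapped PPARg at 24 h, against 33.7% and 24.4% of all the sites. Whether repeats collect reads here was not tested, and these 12 are part of the 330 rises. The overlapping Eif4enif1 window had 26. Adipoq and Rgs1 had 11 each, and Fam198b, Gpr65 and St6gal1 10 each. Near Ang5 there were 8 sites, with 3 of 4 regions risen and a median of 1.92, and near Ear14, an eosinophil-associated ribonuclease gene, 8 with 2 of 3 risen.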

How the data were processed

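Processed C57 files were used, beside the CEBPb and EGR2 peak lists of the other strains. Reads were aligned by the authors (Bowtie2, to the genome of the strain, with positions then moved to mm10). By their methods they called HOMER peaks per replicate and kept the ones reproducible between replicates by IDR, so each list stands for a group. The C57 PPARg lists and the EGR2 lists of the other strains carry another kind of score, with lowest values of 7 to 18. Their median peak width is 200 bp. The other lists have scores of 540 to 1000 and median widths of 215 to 244 bp, so shares from the 2 kinds of list are not measured alike. The score and count of a peak are deposited values with no unit stated and served only to rank peaks. The signal values, as deposited, count tags in 1000 bp around open regions (within the peak for EGR2) and are scaled by the authors to 10000000 tags of a library, per the file headers. A value times the library total gave whole reads within 0.1 read for 100% of 1287098 values (1403190 in the time course), on which edgeR and DESeq2 were run as alternatives. PU1, CEBPb, histone and Pol II chromatin was fixed with formaldehyde alone and STAT6, PPARg and EGR2 chromatin with DSG as well, which can change how many peaks are called.

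Overlap was 1 bp or more (bedtools 2.31.1). Genes came from GENCODE M21 for mm10. Regions were tested with limma 3.58.1 (R 4.3.3, trend) on log2(tags + 1) over the whole table, with Benjamini-Hochberg adjustment at 0.05, and checked on simulated data. The fold rule (2.5-fold, at least 16 tags, 8 for Pol II, pseudocount 1) understates low regions. Pol II replicate numbers were taken to pair the libraries because deviations of each of the 3 same-numbered pairs correlated above 0.1 (0.118, 0.240 and 0.207), although 24 h replicates 1 and 3 correlated more with basal replicates 2 and 4 (0.171 and 0.373). Basal replicate 4 has no partner and does not inform the blocked contrast. Labels do not say that replicates came from separate animals, so p-values measure the spread between these libraries. Intervals are exact binomial at 95% and cover counting error only. Count tests used edgeR 4.0.16 and DESeq2 1.42.0, and tables Python 3.11.15, pandas 2.3.3, numpy 2.4.6, scipy 1.17.1 and matplotlib 3.10.9.

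The members and lists were chosen with earlier results of these data known. Named sites were the 8 largest H3K27ac rises, 4 largest falls and 4 largest Pol II rises with groups that did not overlap, the 4 highest CEBPb values, the sites nearest to up to 10 genes of the alternative activation and IL-4 signalling lists with the highest H3K27ac, and those nearest to Cebpa, Cebpb and Cebpd. Marker and pathway genes were 16 lists written by hand. Alternatives are given in the closing section.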

Additional observations from a re-analysis of the deposited data

Results flagged for a closer look

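In the 4 basal Pol II libraries, 27 regions of named sites were examined for a library far from the others, and 2 were picked out, where chance alone picks about 1 in 20. At the Rps24 site basal replicate 4 held 3.04 Pol II tags against 0.54 to 0.80 in the other 3, a gap of 0.896 of the range. At the Fam102a site basal replicate 2 held 64.2 tags against 9.36 to 13.2 in the others, a gap of 0.931 of the range, and it carried much of the basal mean from which Pol II there fell.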

How the results depend on the processing

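The number of sites depended on the lists, with 2011 from lists of equal length and 2310 from the better-valued 18749 peaks. Among those the 24 h peaks of other strains covered 86.8% of sites in BALB, 85.5% in NOD, 77.8% in PWK and 53.3% in SPRET, PU1 covered 40.6% in basal and 52.5% at 24 h, STAT6 43.2% and PPARg 30.8% at 24 h. With centres within 200 bp, PU1 covered 41.7% in basal and 47.7% at 24 h, and within 50 bp TTGCNNAA was at 29.0% of sites.

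For H3K27ac, 586 regions rose with no filter and 214 with a 32-tag filter, and 1159 fell at 2-fold and 230 with median-ratio scaling. The replicate block called 2734 of the 7259 regions, beside 25757 of all 67742 regions. DESeq2 called 267 (against 2.17% higher and 0.931% lower of all regions), and limma 0. With 2 pairs the H3K27ac, H3K4me2 and H3K4me3 numbers could not be shown to pair the libraries (r = 0.470, 0.287 and 0.250). For Pol II the rises and falls were 73 and 32 with a pseudocount of 5, 57 and 38 with a 32-tag filter and 225 and 284 at 2-fold. The replicate block called 59, beside 548 of all regions, and DESeq2 113 against 31. For H3K4me2, 15 fell with a pseudocount of 5, 54 rose with no filter and 8 with a 32-tag filter, and 61 rose and 900 fell at 2-fold. Median-ratio scaling gave 162 rises, 0 falls and 38 calls, the replicate block 26 calls (beside 376 over all regions), edgeR 53 and DESeq2 31, and peak centres within 100 bp of the region's gave 12 rises and 9 calls, against 17 calls. For H3K4me3, 38 rose with a pseudocount of 5, 572 rose and 22 fell with no filter, 39 rose with a 32-tag filter, 124 rose and 17 fell at 2-fold, and 41 rose and 3 fell with centres within 100 bp. The replicate block called 878, beside 11526 of all regions, and DESeq2 26.

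In the time course median-ratio scaling left 77 lower at 1 h and 17 at 24 h. The replicate block called 436 higher and 1930 lower at 1 h, 727 and 629 at 6 h and 444 and 285 at 24 h, and edgeR 300 and 39 at 1 h, 129 lower at 6 h and 222 and 8 at 24 h.

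Leaving out 1 library at a time gave 321 to 446 H3K27ac rises, 542 to 803 falls and 0 to 26 calls, 108 to 205 Pol II rises, 116 to 166 falls and 0 to 66 calls, 29 to 49 H3K4me2 rises, 44 to 1358 falls and 0 to 3391 calls, and 83 to 90 H3K4me3 rises, 12 to 15 falls and 0 calls. In the time course it gave 17 to 243 higher and 18 to 2206 lower at 1 h, 30 to 435 and 12 to 477 at 6 h and 57 to 241 and 2 to 208 at 24 h.

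Of the single sites, the H3K27ac log2 change at Cd200r3 turned from -0.28 to 0.086 with median-ratio scaling and ran from -0.56 to 0.052 with 1 library left out, above 0 without basal replicate 1. At Pdcd1lg2 it turned from -0.16 to 0.19 with median-ratio scaling and ran from -0.66 to 0.33, with 0.21 without 24 h replicate 2 and 0.33 without basal replicate 1. Without 24 h replicate 2, Skor1 (2.49) and Batf3 (1.13) lost their call, as did Batf3 without basal replicate 1 (1.01) and Esp38 without basal replicate 2 (0.85). Of the alternative values for the named sites 300 kept direction and side of the threshold, 5 turned, 5 lost their call and 2, both at Il4ra, gained one. The causes of these shifts were not tested. Pooled peak lists allow no replicate check of the sites themselves, and single peaks near the lowest score of 540 are the least certain.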
